A study of Mus musculus with 2 samples.

Results

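The 19 largest T cell clones of a graft-versus-host disease colon were compared with each other. A clone was a set of cells with the same productive T cell receptor (TCR) chains, that is, the same nucleotide sequence of the third complementarity-determining region (CDR3) and the same V and J segments in their 1 TRB chain and in each of their TRA chains. All clones of 20 or more kept cells were taken. They held 1042 of the 2628 kept cells with a clonotype, which made 39.6%, and of 5333 kept cells in all; these 2628 cells formed 826 clonotypes, 602 of them of 1 cell. The clones are named by their rank in size. Clone 1 had 263 cells, clones 2 and 3 had 88 and 83, clones 4 to 9 had 57 to 48, and the smallest, clone 19, had 21. The clones just outside the threshold had 18 cells.

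The cells came from lethally irradiated Balb/c mice that had received 5000000 bone marrow cells of C57BL/6 (B6) donors, together with splenocytes holding 800000 alpha beta T cells. On day 21 the colons of 5 mice were pooled, and donor T cells were sorted as positive for H2-Kb, the class I molecule of the donor strain, and for TCR beta. The pool gave 1 RNA library (10x Genomics, 5' chemistry) and 1 TCR library of the same cDNA, and no untreated or syngeneic control was analysed here. The pool is 1 sample, cells are not replicates, and no test was made: every interval is a 95% interval of the counting error alone. Which mouse a cell came from was not recorded in the data used here, so a difference between clones and a difference between mice cannot be told apart.

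T cells of 1 clone descend from 1 cell and keep its receptor, which makes the receptor a natural lineage mark. CD8 T cells kill target cells with perforin and granzymes and secrete interferon gamma and chemokines, while CD4 T cells take one of several helper programmes, each led by its own transcription factor and cytokines. In graft-versus-host disease donor clones that recognise recipient tissue divide and accumulate in the gut, and memory-like cells, which keep factors such as TCF1, are known to sustain such responses.

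Although the sample titles name CD4 T cells, 7 of the 19 clones were CD8 clones (ranks 1, 2, 3, 5, 12, 14 and 17; 569 cells) and 12 were CD4 clones (473 cells). Lineage was set where at least 80% of the cells with UMIs (unique molecular identifiers, each a counted RNA molecule) of only Cd4 or only Cd8a and Cd8b1 were on 1 side. No cell of a CD8 clone had Cd4 alone, and no CD4 clone had more than 1 cell with Cd8a or Cd8b1 alone. Of 7 genes that define T cells 2 or more were present in 1040 of the 1042 cells, at 27.5 to 45.1 summed UMIs per 10000 in the 19 clones. Neutrophil genes had 0 UMIs in all clones and B cell genes at most 0.173 per 10000, and none of the clones carried the TRA joins of invariant natural killer T or mucosal-associated invariant T cells (TRAV11 with TRAJ18, TRAV1 with TRAJ33). The 12 macrophage and monocyte genes lay between 0.0521 and 8.23 per 10000, and 47 of 1042 cells had 2 or more of them. The median depth per cell ran from 3416 UMIs in clone 6 to 7827 in clone 18.

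The TRB CDR3 sequences below show how unlike the clones' receptors were, and they are the labels by which each clone was traced through the RNA data. They are written 5′ to 3′, as deposited by the authors. Lower case marks bases that match the start from the V segment or the end from the J segment (GENCODE M21 sequences), and capitals mark the bases between, which are D segment and added bases. The CD8 clones come first.
clone 1 TRB: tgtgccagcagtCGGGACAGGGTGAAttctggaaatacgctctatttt
clone 2 TRB: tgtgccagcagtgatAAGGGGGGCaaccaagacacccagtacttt
clone 3 TRB: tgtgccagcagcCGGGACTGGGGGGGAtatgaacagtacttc
clone 5 TRB: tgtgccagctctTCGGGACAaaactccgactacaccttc
clone 12 TRB: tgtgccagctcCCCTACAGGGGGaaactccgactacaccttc
clone 14 TRB: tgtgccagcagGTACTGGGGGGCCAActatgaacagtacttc
clone 17 TRB: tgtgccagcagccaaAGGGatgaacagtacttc

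No pair of clones shared a TRB CDR3, and the closest pair of equal length (clones 8 and 19) differed at 9 of 42 bases. Clones 5 and 12, both CD8, joined the same segments, TRBV12-1 and TRBJ1-2. In the CD4 clones TRBV19 was used by 3 clones (6, 15 and 16), but their RNA differed, as shown further on. Sequences of the CD4 clones that the results turn on follow.
clone 4 TRB: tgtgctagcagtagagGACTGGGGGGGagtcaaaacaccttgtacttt
clone 6 TRB: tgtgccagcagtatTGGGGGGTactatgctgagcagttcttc
clone 7 TRB: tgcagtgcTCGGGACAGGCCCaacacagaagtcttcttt
clone 9 TRB: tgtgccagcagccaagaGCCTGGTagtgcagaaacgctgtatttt
clone 11 TRB: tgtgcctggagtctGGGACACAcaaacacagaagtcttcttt
clone 15 TRB: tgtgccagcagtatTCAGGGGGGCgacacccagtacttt
clone 19 TRB: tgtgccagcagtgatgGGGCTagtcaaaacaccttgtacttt

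In the CD8 clones the killing genes set clone 5 apart. Levels are summed UMIs of the gene per 10000 UMIs of the clone. Gzma, which encodes the protease granzyme A, was at 96.0 in clone 5 (95% Poisson interval 93.1 to 99.1), 34.5 in clone 17, 20.4 in clone 3, 11.3 in clone 2, 8.89 in clone 14, 8.00 in clone 12 and 7.21 in clone 1. Clone 5 was thus 8.51 times (interval 8.15 to 8.89) the level of the other CD8 clones together, and 54 of its 56 cells had a Gzma UMI. The second value is of another kind: 60.7% of the Gzma UMIs of clone 17 came from 1 cell, against 12.7% in clone 5.

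Gzmb, encoding granzyme B, was again highest in clone 5, at 68.4 (65.9 to 70.9), with a median over the 7 clones of 25.2. It was lowest in clone 17, at 8.72 (7.31 to 10.3). After each cell was thinned to 2000 UMIs, 98.2% of the cells of clone 5 and 36.4% of those of clone 17 had a Gzmb UMI. So the clone with the second Gzma level had the least Gzmb. Prf1, the pore-forming perforin, was at 5.02 (4.36 to 5.74) in clone 5, at 2.37 in clone 3 and 2.26 in clone 17, and at 0.544 to 1.03 in the other 4 clones. Gzmk, the granzyme of less differentiated effectors, had the same highest and lowest clone as Gzmb. It ran from 1.29 in clone 17 to 7.56 in clone 5 with a median of 4.96. Nkg7, a protein of cytotoxic granules, ran from 20.9 to 33.4.

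**Figure D1:**
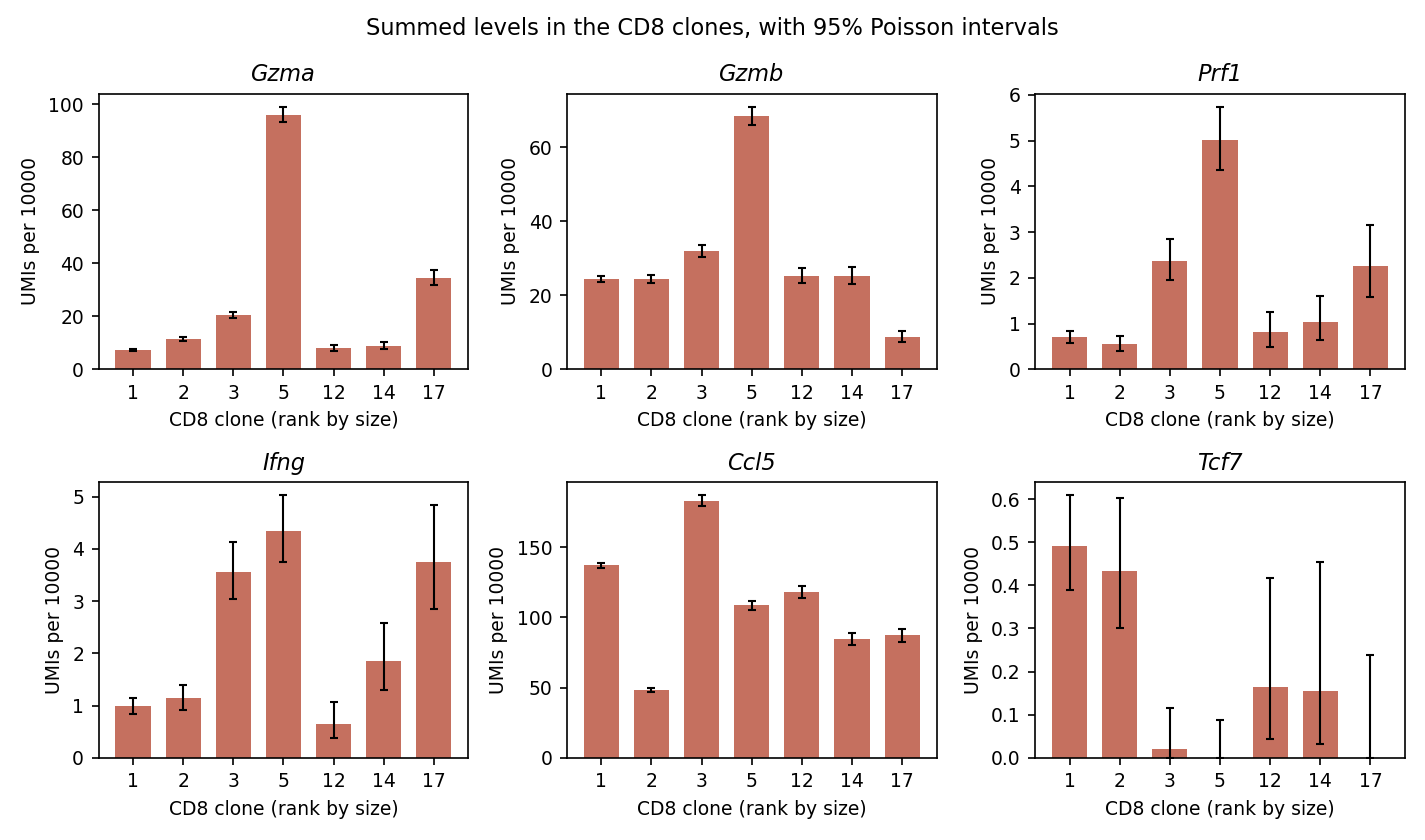
Levels of 5 effector genes and of Tcf7 in each of the 7 CD8 clones. The horizontal axis gives the clone's rank by size and the vertical axis UMIs per 10000 UMIs of the clone; bars are summed levels and lines their 95% Poisson intervals. Clone 5 stands highest for Gzma, Gzmb, Prf1 and Ifng, clone 3 for Ccl5, and Tcf7 was read mainly in clones 1 and 2.

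A gene was called variable between clones when its highest clone was at least 2-fold over the median clone, among genes whose pooled level predicts 10 or more UMIs in the smallest clone. In the CD8 clones 72 of 2139 measured genes, or 3.37%, were called. Of the 13 genes of the cytotoxic effector list, 9 were measured and 3 (Gzma, Gzmb and Prf1) were called; Gzmk, Nkg7, Fasl, Ctsw, Serpinb9 and Serpinb6b were not. The median of highest over median clone was 1.52 over these 9 genes and 1.28 over all 2139. Called genes had their highest level most often in clone 17 (21 genes), clone 3 (19) and clone 5 (15), and in the other 4 clones 4 or 5 times each. Clone 17 was also the smallest CD8 clone, with 154738 UMIs against 1653066 in clone 1. Clones 14 and 12, the next smallest, had 4 such genes each. The call uses no interval, and the part of counting error and of single cells in these counts was not tested. A threshold of 3-fold left 22 called genes.

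Cytokines and chemokines gave a second view of the CD8 clones. Ifng, encoding interferon gamma, was at 4.35 (3.74 to 5.03) in clone 5, 3.75 in clone 17 and 3.55 in clone 3, whose intervals overlap, and at 1.86 in clone 14, 1.14 in clone 2, 0.986 in clone 1 and 0.653 (0.373 to 1.06) in clone 12. The clones with high Prf1 were the clones with high Ifng, and over the 7 clones the Spearman correlation of the 2 levels was 0.82. This is a description of 7 points from 1 library. Areg, encoding the growth factor amphiregulin, was at 3.28 (2.79 to 3.84) in clone 3 and 1.94 in clone 17, but had 1 UMI each in clones 2 and 12. Ccl5, a chemokine of effector and memory T cells, was at 183 (179 to 187) in clone 3, 137 in clone 1 and 48.4 in clone 2. After thinning it was found in 86.4% to 100% of the cells of each clone, so that the clones differed in its amount. Ccl5 followed depth: its Spearman correlation with the clones' median UMIs per cell was -0.79 over the 7 clones, and the part of depth in it was not tested. Without cells that had 2 or more mitosis genes its highest clone was clone 12, not clone 3. Ccl4, an inflammatory chemokine of activated T cells, was called, as was Ccl3: it was at 14.5 in clone 5 and 13.3 in clone 17, and at 2.79 to 6.29 in the other 5 clones.

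Memory genes ran the other way in part. Tcf7 was too low to count as measured and was chosen after its values were seen. Tcf7, encoding the memory factor TCF1, was at 0.490 (0.389 to 0.609) in clone 1 and 0.433 (0.301 to 0.602) in clone 2. It had 4 UMIs in clone 12, 3 in clone 14, 1 in clone 3, and none in clones 5 and 17. The clones without Tcf7 UMIs were among those with most Prf1 (Spearman correlation -0.90 over 7 clones). In this correlation the Tcf7 ranks of clones 3, 5, 12, 14 and 17 rest on 4 or fewer UMIs each. The floor of 3 UMIs in clone 17 lies above the levels of clones 12 and 14, so its 0 cannot be ranked below them. Il7r, the receptor for the survival cytokine interleukin 7, did not follow Tcf7: it was highest in clones 5 (2.59) and 1 (2.37), and lowest in clones 12 (0.693) and 3 (0.769). Ly6c2, a surface protein of effector and memory CD8 cells, was at 14.1 in clone 3, 11.4 in clone 14 and 0.388 (0.142 to 0.844) in clone 17. Of the 15 genes of the memory and tissue exit list 5 were measured and only Ly6c2 was called, beside 3.37% of all measured genes. Cd27, Klf2, Lef1 and Il7r were not called. Eomes, a factor of effector and memory cells, was the only one called of 6 measured effector transcription factors, and ran from 0.129 in clone 17 to 0.977 in clone 2.

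Clone 17, the smallest CD8 clone with 22 cells, differed from the other CD8 clones in many genes, of which Tox, Xcl1 and Penk were chosen after their values were seen. Several of these genes were also read in CD8 cells of smaller clonotypes, as given further on. Tox, a factor of chronically stimulated T cells, was at 3.23 (2.40 to 4.26), which was 21.2 times (14.2 to 31.5) the other CD8 clones; 16 of 22 cells had a UMI. Lag3, an inhibitory receptor, was at 5.56 against 0.726 in the others, and Xcl1, a chemokine for cross-presenting dendritic cells, at 3.04 against 0.273. Klrd1, whose product pairs with that of Klrc1 in a natural killer receptor, was at 4.27, next to 2.59 in clone 5 and 1.68 in clone 3, and at 0.248 to 0.927 in the other 4 clones. Penk, the enkephalin precursor, was at 2.39, with 37.8% of its UMIs from 1 cell. Pdcd1, the inhibitory receptor PD-1, was not particular to clone 17: it was at 8.85 there, 8.35 in clone 5, 7.17 in clone 3 and 6.57 in clone 12, but at 2.01 in clone 1, 1.14 in clone 14 and 0.643 in clone 2. No CD8 clone lay between 2.01 and 6.57 for Pdcd1. Of 5 measured early TCR signal genes 4 were called, beside 3.37% of all measured genes. Tnfrsf9 and Tnfrsf4 were highest in clone 17, Nr4a2 in clone 3 and Il2ra in clone 5. The stress genes Fos, Jun and Zfp36, which the dissociation of tissue can induce, were also called and highest in clone 17, with 50.8% of its Fos UMIs in 1 cell; their part in the other genes of clone 17 was not tested. The summed macrophage and monocyte list was also highest in clone 17, at 3.17 against 0.245 to 1.47 in the other CD8 clones, and its part in the genes of clone 17 was not tested.

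Genes of interferon-induced membrane proteins separated clones 3 and 5 from the rest, and other surface genes did so only in part. Ifitm1 was at 17.9 (16.7 to 19.1) in clone 3, where 48 of 83 cells had a UMI, and at 4.42 in clone 5, 1.55 in clone 14, 0.550 in clone 1 and 0.309 in clone 2, with 0 UMIs in clones 12 and 17. Ifitm3 was at 7.42 in clone 5 and 6.19 in clone 3 and at most 0.672 elsewhere, and Ifitm2 was at 4.02 and 3.09 against at most 0.286. The interferon response list had 0 of 5 measured genes called, which is near the 3.37% of all measured genes. Ifitm1, Ifitm2 and Ifitm3 were among the genes with the widest spread. Capg, an actin-capping protein, was at 3.83 in clone 5. Cd7, a surface protein of T and natural killer cells, showed the reverse: 9.76 in clone 1, 6.72 in clone 17, 6.45 in clone 12, 3.97 in clone 2, 1.09 in clone 14, 0.623 in clone 3 and 0.309 (0.165 to 0.529) in clone 5. Cd5, a brake on TCR signals, was also low in clone 5, at 0.0951, and high in clone 1, at 2.78, with 0.449 to 1.55 in the other 5 clones. Clone 1 was marked by Cd6 (3.05 against 0.712 in the other CD8 clones), by the factor Klf3 (0.629 against 0.117), and by the gut-homing receptor Ccr9 (0.847 against 0.0651; 65 of 263 cells had a UMI). The Apoe and Ccl1 values that the same rule named for clones 3 and 5 came from 2 cells each.

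One gene was read in a single clone. Syce1, which encodes a protein of the synaptonemal complex of meiotic chromosomes, had 173 UMIs in 117 of the 263 cells of clone 1, or 44.5% of them (Clopper-Pearson interval 38.4 to 50.7). The other 18 clones had 0 UMIs in 779 cells, which allows a share of cells with a UMI of up to 0.385% by a floor of 3 cells and 0.472% by the Clopper-Pearson interval, at median depths of 5026 and 5176 UMIs per cell. Clone 1 was 80.4-fold higher when the other CD8 clones together were set at a floor of 3 UMIs, and the 95% interval of the ratio began at 64.7. Syce1 lies on chromosome 7 at chr7:140777229-140787852 on the minus strand (GENCODE M21, GRCm38). Its reads followed the receptor outside the clone too. Of 64 further kept cells with the TRB chain of clone 1, which were left out for their TRA set or for a second TRB chain, 24 (37.5%) had a Syce1 UMI. Of 36 cells that had clone 1's TRA chain with no TRB chain or another one, 14 (38.9%) had it. Of the 4319 other cells with a productive chain only 3 had a UMI (0.0695%). The TRA chain that the second of these groups shares is printed here with the TRB of clone 1 above.
clone 1 TRA: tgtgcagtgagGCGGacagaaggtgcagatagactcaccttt

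A Y-linked gene was not detected in clone 5 and nearly so in clone 15. Ddx3y, a Y-chromosome RNA helicase (chrY:1260771-1286629, minus strand), had 0 UMIs in the 56 cells of clone 5, which allows up to 5.36% of cells with a UMI by the same floor and 6.38% by the Clopper-Pearson interval. It had 1 UMI in the 25 cells of clone 15, a CD4 clone. Of the 986 cells of the 18 clones other than clone 5, 306 (31.0%) had a Ddx3y UMI. Outside clones 5 and 15 the level ran from 0.300 in clone 18 to 1.15 in clone 11. Clone 5 was 8.28-fold lower than the other CD8 clones together when set at a floor of 3 UMIs, and the 95% interval of the ratio of clone 5 to them ended at 0.150. The Y chromosome itself was read in both clones. Eif2s3y, a translation factor gene of the same chromosome (chrY:1010543-1028847), was at 1.14 (0.842 to 1.51) in clone 5 and 1.35 (0.849 to 2.05) in clone 15. The second value was the highest of the 19 clones, which began at 0.693. It was chosen after its values were seen. Further cells with the TRB chain of these clones gave 1 Ddx3y UMI in 17 cells for clone 5 and 0 in 20 cells for clone 15, which allows up to 15% by the floor and 16.8% by the Clopper-Pearson interval. Cells with only the TRA chain in common did not all lack it: 1 of 9 such cells had a UMI for clone 5, and 3 of 27 for clone 15.

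**Figure D2:**
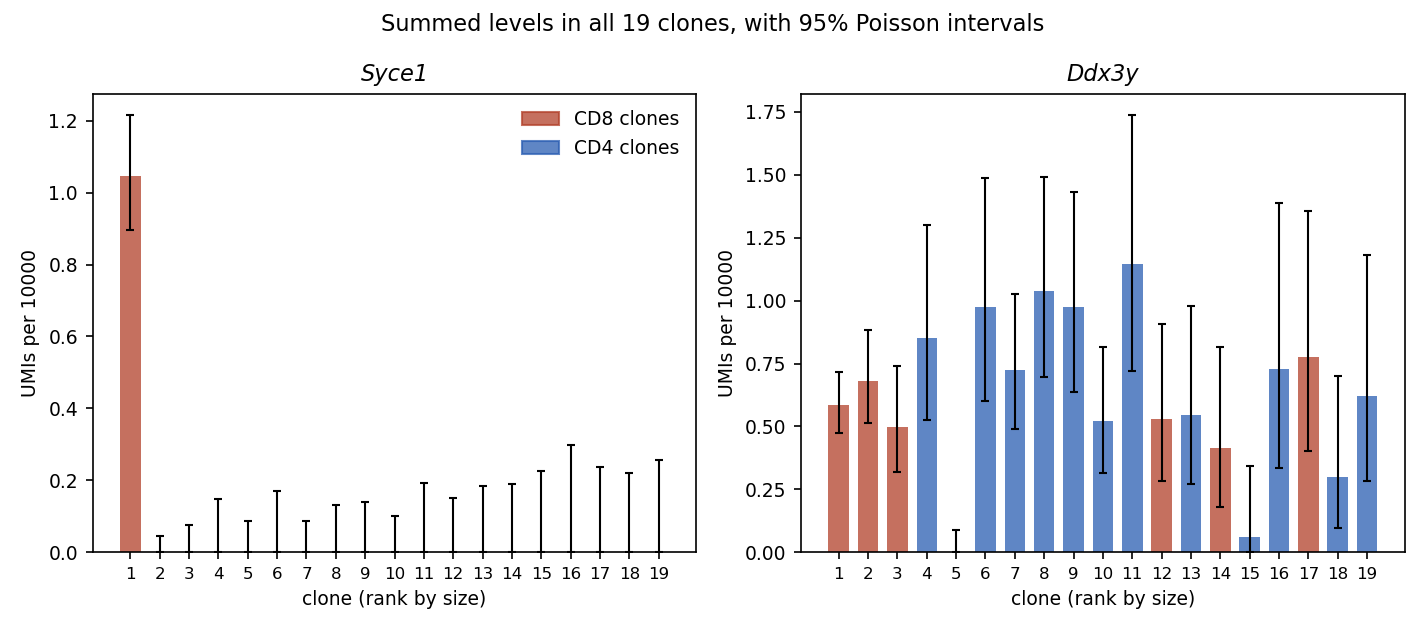
Syce1 and Ddx3y in all 19 clones. The horizontal axis gives the clone's rank and the vertical axis UMIs per 10000 UMIs; bars are summed levels, red for CD8 and blue for CD4 clones, and lines 95% Poisson intervals. Syce1 has a bar in clone 1 alone, and Ddx3y has none in clone 5 and 1 UMI in clone 15.

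The CD4 clones differed from each other in a larger share of genes than the CD8 clones: 138 of 1756 measured genes, or 7.86%, were called. The 2 shares rest on 12 and 7 clones of unlike size and were not tested against each other. Of the cytotoxic list 6 of 8 measured genes were called in the CD4 clones (Gzma, Gzmb, Gzmk, Nkg7, Serpinb6b and Serpinb9), with a median of highest over median clone of 2.53 against 1.41 over all 1756 genes. Called genes peaked in 11 clones, with 8 to 18 genes in each; clone 10 had 1. A threshold of 3-fold left 26 called genes, and 20 expected UMIs in place of 10 left 57 of 821.

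Ccl5 was high in clones 4, 8 and 9, and Ccl5 and Gzmk were low in clones 10, 11, 13 and 15. Ccl5 was at 128 (124 to 133) in clone 9, 99.6 in clone 4 and 90.3 in clone 8, and at 55.6 in clone 6, 43.9 in clone 16, 30.7 in clone 19, 24.1 in clone 18 and 12.1 in clone 7. In clones 13, 10, 11 and 15 it was at 8.04, 7.02, 6.05 and 5.17 (4.13 to 6.40). At the low end Ccl5 UMIs were still found in 60.0% of the thinned cells of clone 15, beside CD8 clones with at least 48.4 per 10000 in the same pool; the part of free RNA was not tested. Gzmk was at 5.86 (4.97 to 6.85) in clone 9, 4.57 in clone 19, 3.11 in clone 6 and 3.08 in clone 4, and had 1 UMI in clone 10 and 0 in clone 15. Over the 12 clones Gzmk and Ccl5 had a Spearman correlation of 0.89, as a description of 12 points that share 1 library. Both genes also ran against depth. With the clones' median UMIs per cell the correlation was -0.64 for Ccl5 and -0.59 for Gzmk, and the part of depth was not tested. Nkg7 ran from 3.20 in clone 15 to 24.1 in clone 8, with a median of 9.59.

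Gzmb shared its highest clone, clone 9, with Ccl5, and its lowest, clone 13, was among the clones low in Ccl5. Its next highest clones, 18, 7 and 19, were not the next for Ccl5. Gzma was highest in clone 7, which was not among the clones high in Ccl5. No correlation of either gene with Ccl5 was computed. Gzmb was at 13.2 (11.9 to 14.7) in clone 9, 8.89 in clone 18, 7.09 in clone 7 and 6.99 in clone 19, with a median of 4.96 and 0.447 (0.204 to 0.848) in clone 13. Without cells that had 2 or more mitosis genes its highest CD4 clone was clone 7. Even clone 9 was below 6 of the 7 CD8 clones, which were at 24.4 or more. Gzma was at 8.16 (7.33 to 9.06) in clone 7, where 20 of 54 cells had a UMI. The next values, 6.25 in clone 18 and 5.03 in clone 4, each came mostly from 1 cell, which held 85.6% and 92.7% of the UMIs. The other CD4 clones were at 1.45 or less, and clones 11 and 15 had 0 Gzma UMIs. Prf1 was at most 0.451 in any CD4 clone, below the lowest CD8 clone.

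Genes of the Th17 programme, in which T cells make interleukin 17 and 22 and support barrier tissue, were read in the same 4 clones that had least Ccl5. All of them were below the level that counts as measured, and Il22 and Il23r were chosen after their values were seen. Il17a was at 0.834 (0.477 to 1.35) in clone 11, 0.688 (0.446 to 1.02) in clone 10, 0.595 in clone 13 and 0.308 in clone 15. It had 1 UMI in clone 18 and 0 in the other 7 CD4 clones and in all 7 CD8 clones. Few cells carried it, 6 of 46 in clone 10, and 91.7% of the UMIs of clone 13 came from 1 cell. Il22 was at 1.97 in clone 15, 1.29 in clone 13 and 0.936 in clone 10, with 69.2% to 78.1% of the UMIs from 1 cell in each, and clone 11 had 0. Il23r, the receptor that maintains Th17 cells, was at 0.677 in clone 15 and at 0.313 to 0.347 in clones 10, 11 and 13.

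More abundant genes drew the same line in part. Actn2, encoding a muscle alpha-actinin, was at 6.59 (5.40 to 7.96) in clone 15, where 25 of 25 cells had a UMI, at 3.67 in clone 13, 3.66 in clone 18, 3.64 in clone 10 and 3.44 in clone 11. It was at 1.31 in clone 7 and at most 0.162 in clones 6, 9 and 16, and had 0 UMIs in clones 4, 8 and 19. Tmem176a and Tmem176b, ion channel proteins of immune cells, were highest in clones 13 and 15, at 3.62 and 3.76. Clone 18 thus had the Actn2 level of the Th17 marker clones with 1 UMI of Il17a. Foxp3, Il4, Il5, Ccr8, Gata3, Il13 and Il1rl1 were chosen after their values were seen. Foxp3, the factor of regulatory T cells, had UMIs in clones 7 and 11 among the CD4 clones, at 0.140 and 0.365, from 1 cell in each. Il4, a cytokine of the Th2 programme, was at most at 0.681, in clone 8, where 1 cell held all of its UMIs, and Il5 had 0 UMIs in every clone. Other genes of the Th2 programme were read in CD4 clones. Ccr8 was at 3.33 in clone 8, with a median of 0.756, and Gata3 at 1.34 in clone 6, with a median of 0.369. Il13 was at most at 0.451, in clone 9, and Il1rl1 at most at 0.365, in clone 4.

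**Figure D3:**
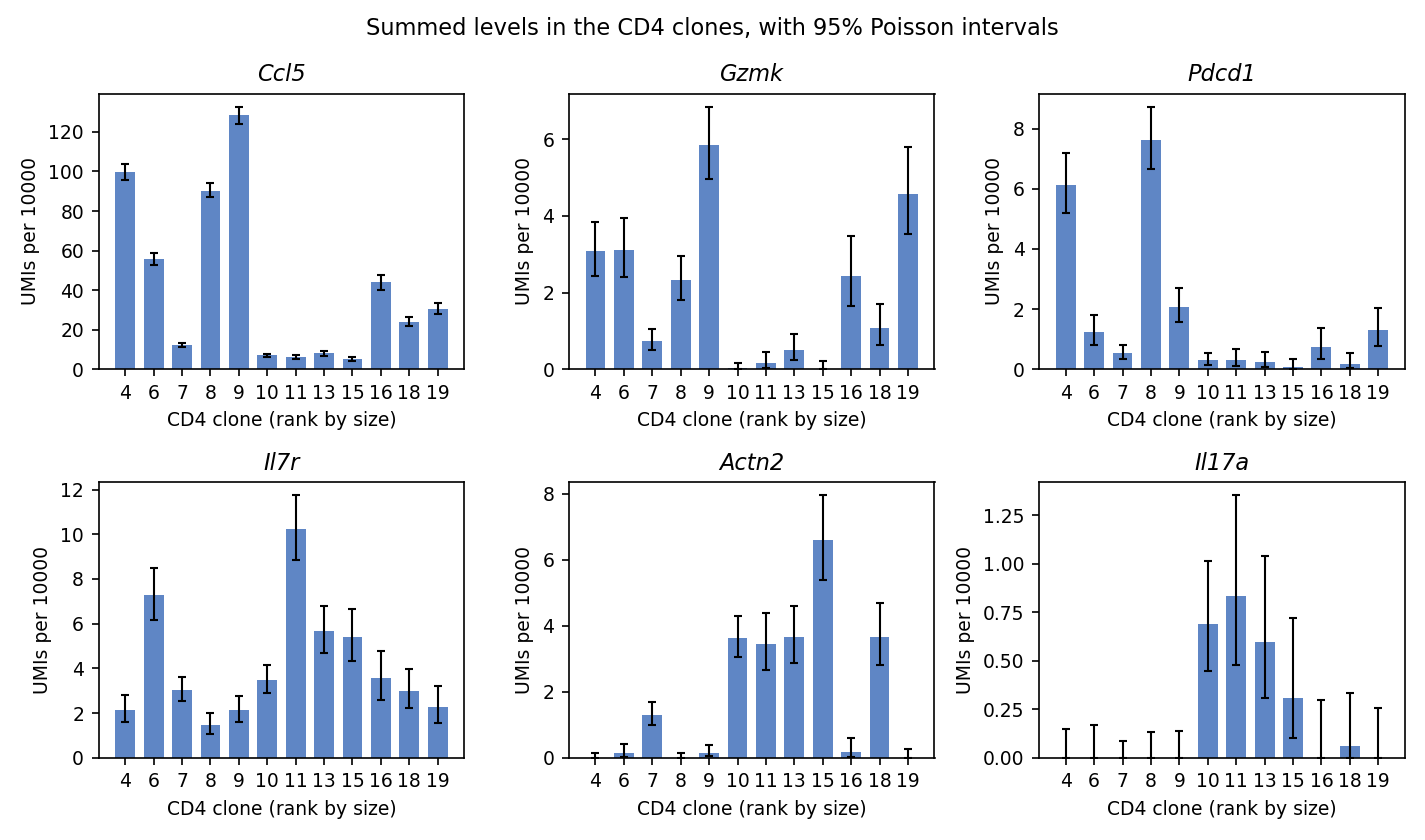
Levels of 6 genes in each of the 12 CD4 clones. The horizontal axis gives the clone's rank by size and the vertical axis UMIs per 10000 UMIs of the clone; bars are summed levels and lines 95% Poisson intervals. Ccl5, Gzmk and Pdcd1 are low in clones 10, 11, 13 and 15, where Actn2 and Il17a are high; Il7r is highest in clone 11.

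Of 17 listed cytokines 4 were measured. Areg and Ifng were called and Cd40lg and Tnfsf11 were not, beside 7.86% of all measured genes called. Ifng was at 4.70 (3.88 to 5.64) in clone 4, 4.57 in clone 19 and 3.69 in clone 8, with a median of 1.60 and 0.716 in clone 10. Clones 4 and 19 changed places as the highest when the cell with most Ifng was left out of each clone. Areg was at 11.9 in clone 8, 7.13 in clone 19 and 6.36 in clone 4; 43.1% of the UMIs in clone 8 came from 1 cell. Csf2, encoding the growth factor GM-CSF, was not measured by the threshold either. It was at 6.64 in clone 19, from 3 of 21 cells and with 67.7% of its UMIs in 1 of them, at 2.47 in clone 4, with 59.0% in 1 cell, and at 0.502 in clone 8. All other CD4 clones were at 0.123 or less, and clones 9, 13 and 18 had 0 UMIs. In 31 further cells with the TRB chain of clone 19, Csf2 was at 0.417 (0.180 to 0.822).

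Memory genes were led by clones 6 and 11. Il7r was at 10.2 (8.83 to 11.7) in clone 11 and 7.28 (6.18 to 8.51) in clone 6, with a median of 3.26 and 1.47 (1.05 to 1.99) in clone 8. It tended to be low where Ccl5 was high (Spearman correlation -0.66 over 12 clones). Clone 6 had the highest levels of Tcf7 (1.62), of Klf2, a factor that keeps T cells in circulation (4.68), and of Slamf6, a receptor of stem-like T cells (29 of 55 cells; 4.35 times the other CD4 clones, 3.13 to 5.98). S1pr1, the tissue exit receptor, chosen like Tcf7 after its values were seen, was also highest there, at 1.76. Yet clone 6 was not low in inhibitory receptors throughout: its Tigit level of 11.0 was next to those of clones 4 (10.9), 8 (9.39) and 9 (9.01), while its Pdcd1 was at 1.25, against 7.63 in clone 8 and 6.12 in clone 4. Pdcd1 had 1 UMI in clone 15. Of the 4 measured memory genes Il7r, Klf2 and Cd27 were called and Lef1 was not, beside 7.86% of all measured genes called. Cd27 was highest in clones 9 (2.37) and 4 (2.15), both among the clones high in Ccl5, and not in the clones highest in Il7r. Its correlation with either gene was not computed.

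Of the genes named by the rule for single CD4 clones, several marked a clone apart from these lists. Clone 6 had Bmp7, a secreted morphogen (0.834 against 0.128 in the other CD4 clones, 17 of 55 cells). Clone 9 had Il10ra, a chain of the interleukin 10 receptor (1.01 against 0.162), and Eomes, a T-box factor of cytotoxic and memory cells (1.58 against 0.341, 21 of 48 cells). Clone 8 had Csf1, encoding macrophage colony-stimulating factor (2.33 against 0.263, 19 of 54 cells), and Nrgn (1.90 against 0.135, 13 of 54 cells). Clone 4 had Ly6c2 at 1.95 against 0.177 in the others, and Cd81 at 2.19 against 0.208. Other genes named for these clones came from few cells and run with the macrophage genes: Cd74 in clone 4 had 85.6% and Lyz2 in clone 8 had 94.7% of its UMIs in 1 cell. The macrophage list was highest in these clones, and its part in their other genes was not tested; the clone with most of each of the genes Areg, Pdcd1, Nkg7 and Ccl5 was the same without cells holding 2 or more macrophage genes, while for Cd27 it moved from clone 9 and for Penk from clone 19 to clone 4.

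The share of dividing cells also differed from clone to clone. Cells were counted as holding mitosis genes when 2 or more of 18 such genes had a UMI after thinning to 2000 UMIs per cell, so that depth did not set the count. In the CD8 clones 147 of 569 cells (25.8%) did so. The share was 47.7% (Clopper-Pearson interval 37.0 to 58.6) in clone 2, 40% in clone 12, 31.8% in clone 17, 29.6% in clone 14, 22.4% in clone 1, 19.6% in clone 5 and 9.64% (4.25 to 18.1) in clone 3. Clone 3, with the most Ccl5 and Ifitm1, had the lowest share, and clone 2, with the least Ccl5, the highest. Clone 3 was the lowest clone for 10 of 13 measured mitosis genes, which belong to the list that set the share. It was also the lowest clone for all 14 measured genes of the DNA replication list. Without thinning the shares of clones 2 and 3 were 62.5% and 16.9%. Clones 12, 14 and 17, with 22 to 30 cells each, have intervals that overlap both clone 2 and clone 1.

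In the CD4 clones 94 of 473 cells (19.9%) had mitosis genes. The share was 48.1% (34.3 to 62.2) in clone 7, 37.0% in clone 10, 35.7% in clone 13 and 31.8% in clone 18, and 12.5% to 20% in clones 8, 9, 11, 15, 16 and 19. It was 3.51% (2 of 57 cells) in clone 4 and 0 of 55 cells in clone 6, with an upper Clopper-Pearson limit of 6.49%. Clones 4 and 6 were thus almost without such cells, although they were the 2 largest CD4 clones, and both had the shallowest cells, with medians of 3694 and 3416 UMIs. Without thinning their shares were 7.02% and 3.64%, against 61.1% in clone 7. The order of sizes was not an order of division: over the 12 CD4 clones the Spearman correlation of Mki67, a gene of all cycling phases, with clone size was -0.31, and with the median UMIs per cell 0.87. Over all clones 88 CD8 and 76 CD4 cells had exactly 1 mitosis gene, and 24 and 18 had exactly 2.

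**Figure D4:**
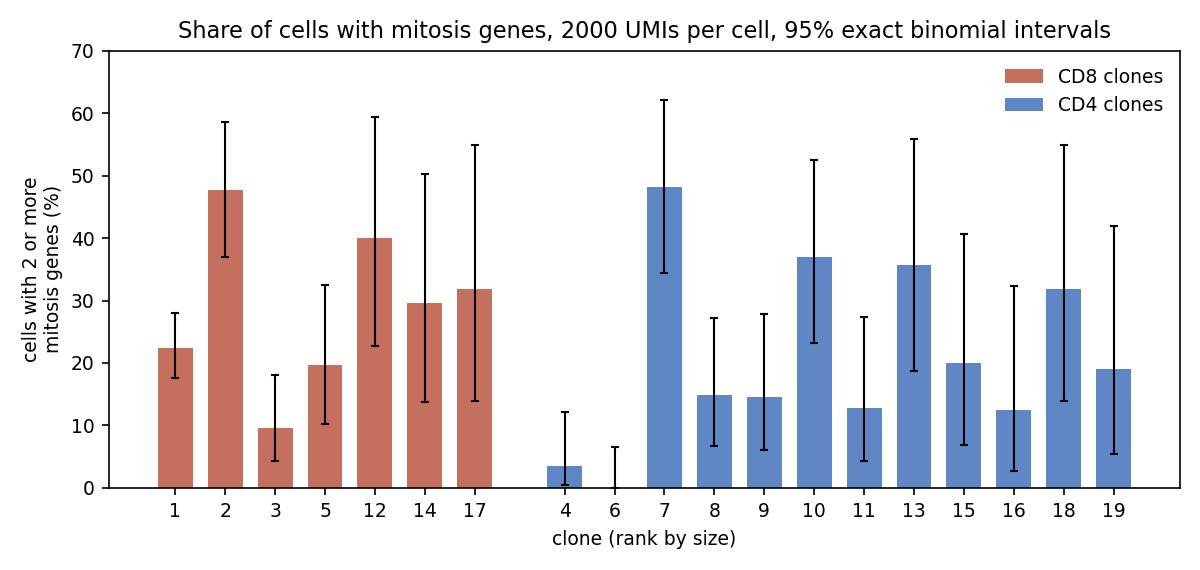
Share of cells with UMIs of 2 or more mitosis genes in each clone, after thinning to 2000 UMIs per cell. The horizontal axis gives the clone's rank, CD8 clones in red and CD4 clones in blue; bars are percentages and lines 95% Clopper-Pearson intervals. Clones 2 and 7 stand highest and clone 6 is at 0.

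Single genes of the mitosis list were low in the same clones, which is not a separate reading because that list set the shares. Birc5, a regulator of chromosome segregation, had 0 UMIs in clone 4 and 0.0464 per 10000 in clone 6, against 3.82 in clone 13 and 3.38 in clone 7. Top2a, which untangles DNA, was at 0.243 in clone 4 and 0.603 in clone 6, against 5.16 in clone 13. In the CD4 clones 6 of 7 measured mitosis genes and 5 of 8 DNA replication genes were called, beside 7.86% of all measured genes. In the CD8 clones 2 of 13 and 0 of 14 were called, beside 3.37% of all measured genes, and 0 of 14 is near that share. The 2 called in the CD8 clones, Mki67 and Kif11, peaked in clone 14, where 43.2% of the Mki67 UMIs and 36.7% of the Kif11 UMIs came from 1 cell. Replication genes gave less contrast: the summed level of the 18 genes was 7.09 in clone 6, 7.30 in clone 11 and 8.71 in clone 4, and 26.4 in clone 18. Cells with 2 or more mitosis genes were deeper, with a median of 9014 UMIs against 4436 for the rest in clone 1; clone 16 was the exception, with 4540 against 4994. Without them 34 of 859 genes were called in the CD8 and 53 of 670 in the CD4 clones.

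Cells with a clone's TRB chain that had missed the clone, mostly for want of a TRA contig, gave a second reading of 4 clones with 20 or more such cells. Clone 12 had the most, 91 cells, of which 76 had no TRA contig and 89 had only CD8 UMIs; with them it would have 121 cells. Their values stayed near the clone's for Gzmb (24.0 against 25.3), Ifng (0.644 against 0.653), Pdcd1 (6.76 against 6.57) and Areg (0.0339 against 0.0408), but Ccl5 was higher (167 against 118) and Mki67 lower (2 against 4.04). For clone 14, 24 such cells had Ly6c2 at 8.23 against 11.4 in the clone, and Itgax, an integrin gene that marked this clone, at 0.665 against 0.930, while Mki67 was at 1.25 (0.698 to 2.06) against 6.82. For clone 1, 34 such cells had Syce1 at 0.936 against 1.05, but Areg at 4.73 (3.79 to 5.84) against 0.103 and Penk at 3.14 against 0.0121. For clone 19, Penk was at 7.92 (6.71 to 9.29) in 31 cells against 11.8, and Gzmk at 3.65 against 4.57.

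Cells of smaller clonotypes gave a further reading, for which the genes were chosen after their values were seen. In 708 clonotyped cells with only CD8 UMIs outside the clones, Gzma was at 21.7, Gzmb at 24.7, Prf1 at 1.71 and Ifng at 2.31, between the lowest and the highest CD8 clone in each. Genes that were high in clone 17 were also read in these 708 cells. Penk was at 2.04 against 2.39 in clone 17, and Xcl1 at 2.58 against 3.04. Lag3 was at 2.24 against 5.56, Klrd1 at 1.93 against 4.27 and Tox at 1.09 against 3.23. In 563 clonotyped cells outside the clones with only Cd4 UMIs, Ccl5 was at 23.5, Gzmk at 0.776, Il7r at 4.31 and Il17a at 0.337, inside the range of the CD4 clones. Other genes were outside it in these cells: Ifitm1 was at 6.24, against 2.01 in the highest CD4 clone, and Xcl1 at 0.988 against 0.326.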

How the data were processed

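The data are 1 RNA and 1 TCR library of 1 pool of colon donor T cells. The authors deposited a matrix of raw UMI counts, genes by barcodes, without normalization, and a table of TCR contigs with counts and their own chain, segment and CDR3 calls. Cell Ranger and mm10 are named per the submitters' processing notes; no version is stated there. The RNA matrix held 32772424 UMIs in 5348 barcodes; 5333 with at least 500 genes and at most 10% mitochondrial UMIs were kept, with 2549 to 39138 UMIs and a median of 4800, and 5133 of them were among 18289 contigs, 52.3% of which were productive. Clones had 1 productive TRB and at least 1 TRA chain; 232 kept cells with 2 or more TRB chains were left out, and no doublet caller was run. The depth per clone was 123271 to 1653066 UMIs.

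Levels are summed counts per 10000 UMIs, with exact Poisson intervals; shares have Clopper-Pearson and ratios exact conditional binomial intervals, all at 95%, covering counting error only. A floor of 3 UMIs stands for 0. TCR, immunoglobulin, mitochondrial and ribosomal protein genes and predicted models were not called. Named genes were, per lineage, up to 6 per list with the widest gap between highest and lowest clone, 12 with the highest clone farthest over the median, and, for the 6 largest clones, 4 higher and 4 lower than the other clones with at least 50 UMIs; genes outside this rule are said to be so or stand for a list. Members, lists and the rule were chosen with earlier results of these data known. The computations were tested on simulated counts. Tools were matplotlib 3.10.9, pandas 2.3.3, scipy 1.17.1 and numpy 2.4.6 under Python 3.11.15. Alternatives to filters, clonotype definition, weighting and thresholds are in the closing section.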

Additional observations from a re-analysis of the deposited data

How the results depend on the processing

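No paired analysis was possible because the pool is 1 sample. The number of CD4 clones fell from 12 to 7 at 30 or more cells per clone; under the TRB chain alone there were 10 CD8 and 16 CD4 clones. The called genes (72 and 138) became 34 and 53 without cells with 2 or more mitosis genes, 29 and 57 at 20 expected UMIs, and 22 and 26 at 3-fold; the first 2 settings also leave fewer genes measured. Thinned to 1000 UMIs, the highest CD8 share of cells with mitosis genes was 35.2% in place of 47.7%. By the DNA replication list the lowest shares were 27.7% in the CD8 and 12.5% in the CD4 clones, in place of 9.64% and 0%; the cause was not tested. Of 24 genes per lineage followed through 10 alternatives, 10 in each lineage kept the same highest clone in all 10. Gzma, Gzmb, Prf1 and Ifng kept clone 5 in all 10 among the CD8 clones, as Ccl5, Gzmk and Nkg7 kept clones 9, 9 and 8 among the CD4 clones. Csf2 moved from clone 19 to clone 4 without the 5% of cells with most UMIs. In that setting the clones were formed again with the threshold of 20 cells, and clone 19 had 21 cells before it. The log2 of highest over lowest clone stayed inside its counting interval in 206 of 240 values for the CD8 and 224 of 240 for the CD4 clones.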
